A study of Mus musculus with 4 samples.

Results

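Suppressor of cytokine signalling (SOCS) genes, the STAT factors they restrain and the cytokine receptors they act on were followed in livers of fasted and refed mice. The genes were Socs1, Socs2, Socs3, Cish, Stat3, Stat5b, Il6ra, Il6st, Lepr and Ghr, and every gene probe carrying one of these names on the array was taken, which gave 18 of 39429 probes. Both groups were male C57BL/6J mice aged 8 to 12 weeks with no transgene or drug named in the labels. Fasted mice had no food for 24 h before the liver was taken, and refed mice were fasted for 24 h in the same way and then fed for 2 h, so that all animals had fasted and no mouse fed throughout was measured. Each of 4 two-colour arrays held whole-liver RNA of 1 fasted and 1 refed mouse, giving 4 livers per condition. The fasted liver was labelled with Cy5 (red) on replicates 1 and 2 and with Cy3 (green) on replicates 3 and 4. The study used these arrays to ask which genes respond to the switch between fasting and feeding.

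Cytokine receptors such as those for growth hormone, leptin and interleukin-6 have no kinase activity of their own and signal through bound JAK kinases, which phosphorylate STAT transcription factors. STATs in turn switch on SOCS genes, whose proteins bind the receptor or the JAK through an SH2 domain, block it and recruit a cullin-5 ubiquitin ligase, so that a SOCS transcript is both a readout of recent cytokine signalling and a brake on it. In liver, Cish and Socs2 are known as growth hormone and STAT5 targets, Socs3 as an interleukin-6, leptin and STAT3 target, and Socs1 as a target of interferons.

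Sequence at the promoters was examined first, because STAT dimers bind the letters TTCNNNGAA and CREB, the factor the study centred on, binds TGACGTCA or the shorter TGACG. RefSeq windows from 250 bases before to 50 bases after a transcript start (GRCm38.p6) were at hand for 9 of the 10 genes, Socs2 being the exception. Both strands were searched, and the shorter letters also count inside the full ones. The STAT letters were held by 8.3% of all 32851 windows and by the windows of 2 genes, Cish and Socs3. The Cish window was among the 0.457% of windows with 2 or more matches, and its matches covered bases 1 to 9 and 12 to 20 of the annotated gene. They are shown with the Socs3 match as short stretches with the letters in capitals.
Cish, chr9:107296654-107296683, plus strand: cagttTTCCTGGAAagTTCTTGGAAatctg
Socs3, chr11:117969502-117969530, minus strand: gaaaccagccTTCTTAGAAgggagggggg

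The shorter letters of CREB, held by 20.8% of all windows, were found once each at Cish and Il6ra, in both as the reverse complement CGTCA in the direction of the gene, and none of the genes held the full letters, which 1.79% of windows had. The full letters were searched as an exact match, whereas the study allowed a mismatch in them near the centres of bound sites. The Il6ra match began 236 bases before the start and the Cish match 97 bases before it, and they are printed because Il6ra was the gene called in the comparison and Cish had the widest ratios. The whole 250 bases upstream of Cish are given, with the shorter letters in capitals. A match of letters is a description and does not show that a factor was bound.
Il6ra, chr3:89913418-89913442, minus strand: cttatctcagCGTCAaaacctgggg
Cish, chr9:107296409-107296658, plus strand: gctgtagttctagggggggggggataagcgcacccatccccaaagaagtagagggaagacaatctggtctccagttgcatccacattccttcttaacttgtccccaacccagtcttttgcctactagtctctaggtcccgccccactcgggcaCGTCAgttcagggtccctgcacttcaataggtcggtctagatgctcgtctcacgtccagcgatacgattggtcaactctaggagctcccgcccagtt

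A log2 ratio sets the fasted against the refed liver of one array, so that values above 0 are higher in the fasted state, and a log2 signal is the level of one liver in its channel, which cannot be compared between probes. Probes had to stand well above background in at least 1 condition on each of the 4 arrays, a filter that 19721 probes passed, among them 17 of the 18 probes of these genes. A probe was called where limma gave a Benjamini-Hochberg adjusted p under 0.10 over all kept probes and the mean change was at least 1.5-fold. This held for 745 probes or 3.78%, of which 335 were higher (1.7%) and 410 lower (2.08%) in the fasted state. With median centring in place of loess, 230 were higher and 635 lower. Across probes, the ratios of replicates 1 and 2 had a correlation of 0.66, those of replicates 3 and 4 one of 0.75, and those of arrays from different pairs 0.22 to 0.40. An added term for dye passed the 0.10 limit at 2908 kept probes or 14.7%. The dye orientation and the livers that lay on each pair of arrays cannot be told apart. All 8 hepatocyte markers examined were kept, and their summed signal was 432800 to 587300 in the fasted and 405800 to 502700 in the refed livers. Of these markers 1 was called, Tat, a tyrosine-degrading enzyme, which was higher in fasted liver (mean 0.84, adjusted p 0.0452). In bulk tissue, fewer cells of a type and less RNA per cell cannot be told apart.

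Of the 10 genes, Il6ra alone was called, higher in the fasted state, and none was called lower. Socs1 was lower and Stat3 higher in fasted liver on every array, and 4 of the 17 kept probes had an adjusted p under 0.10 whatever their fold (10.9% of all kept probes did). Cish, Socs2 and Socs3 had the widest ratios, and these differed between the pairs of arrays by more than the condition means. The probes of the receptors Il6st and Ghr and the brightest probe of Lepr had means close to 0. Which forms of the receptors these probes measure was not looked up. Over all kept probes of these genes, 8 of 17 had 1 sign on all 4 arrays (29.6% of all kept probes did) and in 4 of 17 the fasted and refed livers did not overlap (13.6% of all kept probes).

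**Figure D1:**
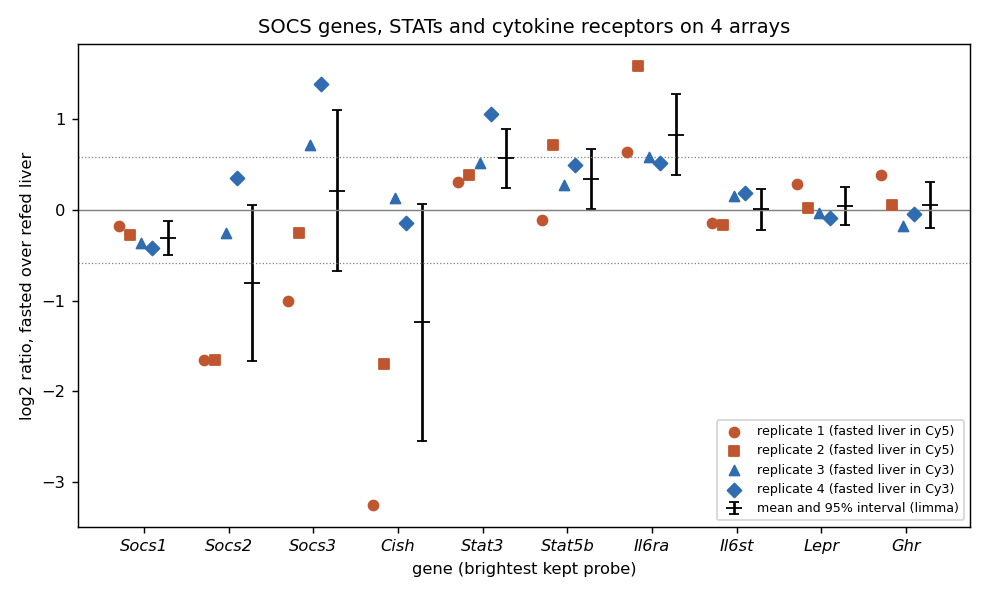
Log2 ratios of fasted over refed liver for the brightest kept probe of each gene, with 1 point per array, coloured by the dye of the fasted liver, and the mean with its 95% interval from limma (n = 4 arrays), and with dotted lines at 1.5-fold. Il6ra and Stat3 lie above 0 and Socs1 below 0 on all 4 arrays, whereas Cish, Socs2 and Socs3 lie lower on replicates 1 and 2 than on replicates 3 and 4.

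Cish, which competes with STAT5 for docking sites on activated receptors, had log2 signals of 8.90, 8.18, 9.39 and 8.79 in the fasted livers of replicates 1 to 4. In the refed livers on the same arrays the log2 signals were 12.15, 9.88, 9.25 and 8.94. The refed liver of replicate 1 stood far above the other livers, the refed liver of replicate 2 came next, and the groups overlapped. This gave log2 ratios of -3.25, -1.70, 0.13 and -0.14 and a mean of -1.24 ± 1.56 (SD, n = 4), for which limma gave an adjusted p of 0.257. Without replicate 1 the mean was -0.57 (adjusted p 0.445), and without each of the others it lay between -1.70 and -1.09. The 95% interval of the mean ran from -2.55 to 0.07, which left both no difference and a 5.84-fold lower level in fasted liver inside it. Its probe lies at chr9:107204196-107204255 (mm9), and each array holds 1 spot of it.

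Socs2, which limits growth hormone signalling by targeting the growth hormone receptor for degradation, was measured by 3 probes, one of them printed 10 times per array. The 10-spot probe had log2 signals of 7.69, 7.21, 8.82 and 8.35 in the fasted livers and 9.34, 8.87, 9.08 and 8.00 in the refed livers. The fasted livers of replicates 1 and 2 were the lowest of the 8, and the refed liver of replicate 4 lay below the fasted livers of replicates 3 and 4, so the groups overlapped. Ratios on the log2 scale were -1.65, -1.66, -0.26 and 0.35, with a mean of -0.80 ± 1.01 (SD, n = 4, adjusted p 0.262 in limma). The 95% interval ran from -1.66 to 0.05. The mean was -0.52 without replicate 1 or without replicate 2 (adjusted p 0.505 and 0.536), -0.99 without replicate 3 and -1.19 without replicate 4.

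The other Socs2 probes share no base with the 10-spot probe, lying 61 and 342 bases from it on chromosome 10. One of them is shown as printed on the array, in lower case throughout, to give an example of the sequence that was measured.
Socs2 probe A_55_P1992838, chr10:94875468-94875527 (mm9), minus strand: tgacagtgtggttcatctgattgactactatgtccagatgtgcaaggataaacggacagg
This probe had log2 ratios of -1.49, -1.77, -0.17 and 0.35 (mean -0.77, adjusted p 0.285). The third probe, A_55_P1992834, had -1.73, -1.84, 0.09 and 0.81 (mean -0.67, adjusted p 0.474). All 3 probes lay between -1.84 and -1.49 on replicates 1 and 2 and between -0.26 and 0.81 on replicates 3 and 4. Within an array the 10 spots of the repeated probe had a pooled SD of 0.120, and the ratios of the 4 arrays, which come from different mice, had an SD of 1.01.

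Socs3, the inhibitor induced by interleukin-6 and leptin that acts at the Il6st and leptin receptors, had log2 signals of 9.11, 8.74, 9.48 and 10.31 in the fasted livers. The refed livers had 10.11, 8.99, 8.78 and 8.92. The highest livers were the fasted liver of replicate 4 and the refed liver of replicate 1, and the groups overlapped. The log2 ratios were -1.0, -0.25, 0.71 and 1.39, with a mean of 0.21 ± 1.05 (SD, n = 4, adjusted p 0.812, 95% interval -0.68 to 1.1).

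**Figure D2:**
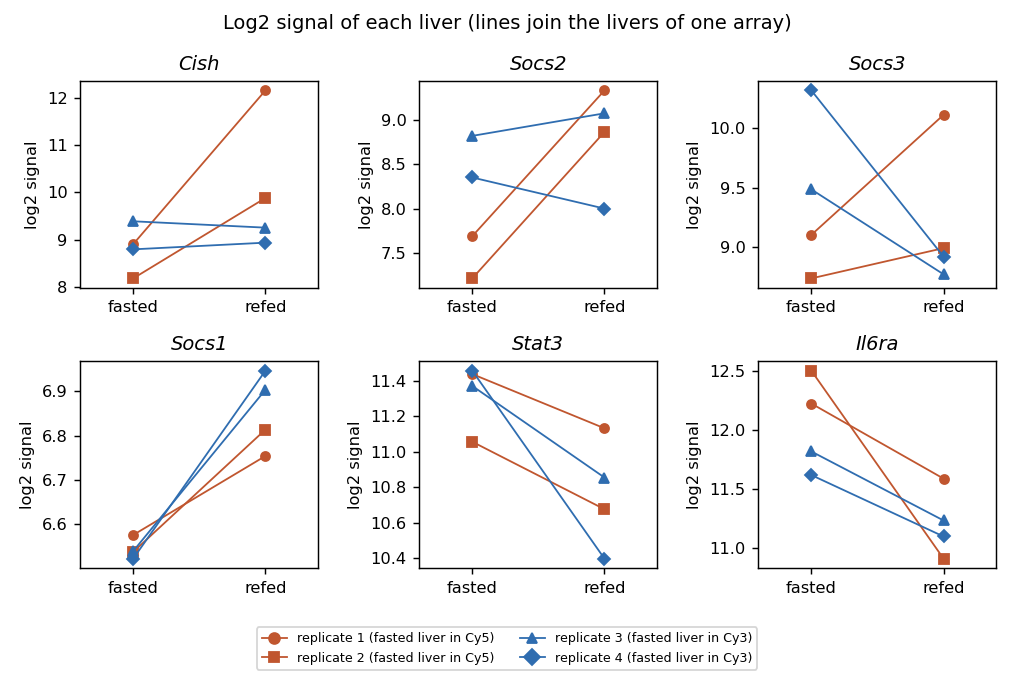
Log2 signal of each liver for 6 genes, with lines joining the fasted and the refed liver of one array and with an axis of its own for each panel. Lines of Cish, Socs2 and Socs3 run differently on replicates 1 and 2 than on replicates 3 and 4, while those of Socs1 rise and those of Stat3 and Il6ra fall from the fasted to the refed liver on all 4 arrays.

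The contrast between the pairs of arrays was tested by the dye term of the model, which passed the 0.10 limit for 5 of the 17 kept probes (14.7% of all kept probes), namely Cish, the 3 probes of Socs2 and Socs3, or 3 of the 10 genes. Summed hepatocyte marker signal also differed between the pairs, being 587300 and 567200 in the fasted against 439700 and 405800 in the refed livers of replicates 1 and 2, and 474300 and 432800 against 488000 and 502700 on replicates 3 and 4, with a dye term that passed for 4 of the 8 markers. Its part in the contrast was not tested. For Cish the mean log2 ratio was -2.47 on replicates 1 and 2 and -0.0036 on replicates 3 and 4, and the term was -1.23 (adjusted p 0.0471). Of the 19721 kept probes 10, or 0.0507%, had a term at least this large in size. Socs2 had means of -1.65 and 0.048 and a term of -0.85 (adjusted p 0.0215), a size reached by 0.426% of kept probes. Socs3 had means of -0.63 and 1.05 and a term of -0.84 (adjusted p 0.0462), a size reached by 0.461%. With this term in the model, Socs2 (adjusted p 0.00658) and Cish (adjusted p 0.0189) were called lower in fasted liver at unchanged means, whereas Socs3 was not called. The term takes the difference between the pairs of arrays out of the spread. These p-values thus rest on the scatter within pairs and not on that between all mice. Fits on either pair of arrays were added after this difference had been seen, and they restate it rather than test it. On replicates 1 and 2 alone, Cish (adjusted p 0.0150) and Socs2 (adjusted p 0.00269) were called lower. On replicates 3 and 4 alone neither was called, and Socs3 (adjusted p 0.0168) and Stat3 (adjusted p 0.0219) were called higher.

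**Figure D3:**
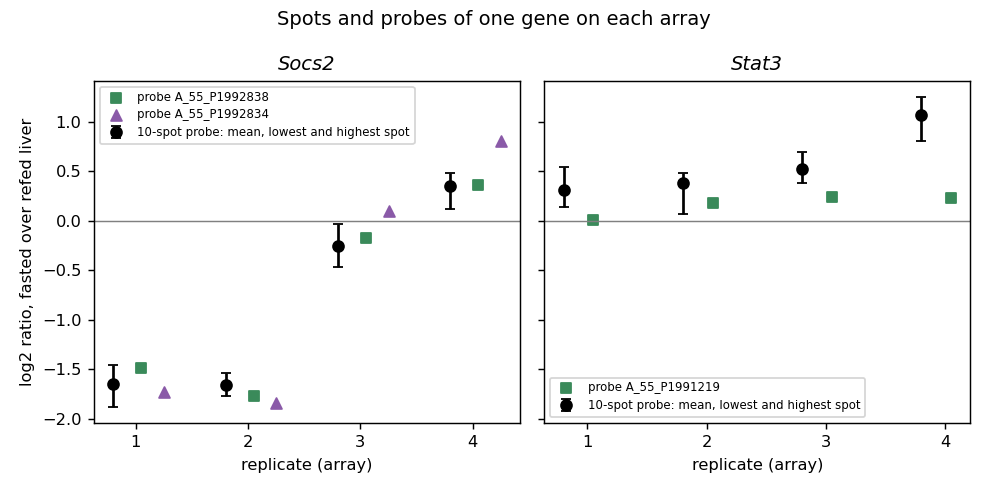
Log2 ratios of fasted over refed liver for every kept probe of Socs2 (left) and Stat3 (right) on each array, where black points are the mean of the spots of the 10-spot probe and their bars reach from its lowest to its highest spot. The Socs2 probes move together, from between -1.84 and -1.49 on replicates 1 and 2 to between -0.26 and 0.81 on replicates 3 and 4.

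Over the 8 livers, the log2 signal of Socs2 was related to that of Cish with Pearson's r = 0.76 (exact permutation p = 0.0168, adjusted 0.174) and Spearman's rho = 0.86 (exact permutation p = 0.0107, adjusted 0.0964), two-sided, with adjustment over 18 relations of Socs2 to the other SOCS genes and to STAT5 target genes, a set chosen after values had been seen. Without the fasted livers of replicates 1 and 2, which lay farthest from the median of Socs2, r was 0.73. Nudt7, a STAT5 target gene, had values of the same size, at r = 0.75 (exact permutation p = 0.0381, adjusted 0.174) and rho = 0.88 (exact permutation p = 0.00724, adjusted 0.0964). For Nudt7, r was 0.37 without those livers, 0.64 among the 4 fasted and 0.78 among the 4 refed livers. Socs3 was related to Socs2 at r = 0.40 (exact permutation p = 0.323, adjusted 0.416) and rho = 0.33 (exact permutation p = 0.428, adjusted 0.481), and at r = 0.11 without the same livers. The permutations moved livers freely across conditions and arrays. Shifts that 2 genes share with the condition or the pair of arrays therefore enter these values and p-values. The fasted and the refed livers of one array were hybridised together and are not fully independent, and the 4 livers of one condition are too few to judge a relation within it.

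Socs1, which binds and inhibits JAK kinases directly, was dim, with log2 signals of 6.58, 6.54, 6.54 and 6.52 in the fasted livers. The refed livers had 6.75, 6.81, 6.90 and 6.95. Every refed liver lay above every fasted liver. The log2 ratios were -0.18, -0.28, -0.36 and -0.42, a mean of -0.31 ± 0.11 (SD, n = 4, adjusted p 0.0701, 95% interval -0.49 to -0.13), which was 1.24-fold and short of the fold limit. Without each replicate in turn the mean ran from -0.36 to -0.27 and the adjusted p from 0.0915 to 0.256. The size depended on the treatment of the background. With normexp on all spots the mean was -0.12 (adjusted p 0.559). With plain subtraction of the local background the mean was -0.64 (adjusted p 0.0187) and with the scanner software's processed signals it was -0.80 (adjusted p 0.0119), and Socs1 was called lower under these last treatments.

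Stat3, the factor activated through Il6st and the leptin receptor, was bright, with log2 signals of 11.44, 11.06, 11.37 and 11.46 in the fasted livers for its 10-spot probe. The refed livers had 11.13, 10.68, 10.86 and 10.40. Each fasted liver exceeded the refed liver on its array, but the fasted liver of replicate 2 lay just below the refed liver of replicate 1. On the log2 scale the ratios were 0.31, 0.38, 0.52 and 1.06, a mean of 0.57 ± 0.34 (SD, n = 4, adjusted p 0.0660, 95% interval 0.24 to 0.89), which was 1.48-fold and just short of the fold limit. The spots had a pooled SD of 0.126 within arrays. Without replicate 1 the mean was 0.65 (adjusted p 0.0792) and Stat3 was called, whereas without replicate 2, 3 or 4 the means were 0.63, 0.58 and 0.40 and the adjusted p was 0.141, 0.195 and 0.115.

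A second Stat3 probe was dim and had log2 ratios of 0.01, 0.17, 0.24 and 0.23 (mean 0.16, adjusted p 0.287). At this probe the fasted livers lay above the refed livers without overlap. Its mean depended on the background treatment, being 0.048 (adjusted p 0.657) with normexp on all spots, 0.37 (adjusted p 0.139) with plain subtraction and 0.57 (adjusted p 0.0302) with the software's processed signals.

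Stat5b, the main STAT of growth hormone signalling in liver, had 2 probes 82 bases apart that differed in replicate 1. The brighter probe had log2 ratios of -0.11, 0.71, 0.27 and 0.49 (mean 0.34 ± 0.35, SD, n = 4; adjusted p 0.218) and its livers overlapped. The other probe, A_55_P2031045, had log2 signals of 9.64, 9.81, 9.86 and 9.86 in the fasted and 9.35, 9.07, 9.40 and 9.30 in the refed livers. Its groups did not overlap, and its log2 ratios of 0.29, 0.74, 0.46 and 0.56 gave a mean of 0.51 ± 0.19 (SD, n = 4, adjusted p 0.0326), which was 1.43-fold and under the fold limit.

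Il6ra encodes the subunit that binds interleukin-6, and its single probe lies at chr3:89674054-89674113 (mm9). The log2 signals were 12.22, 12.50, 11.82 and 11.62 in the fasted livers and 11.59, 10.91, 11.24 and 11.10 in the refed livers. All fasted livers lay above all refed livers, the lowest fasted liver by a small margin. The log2 ratios were 0.63, 1.59, 0.58 and 0.52, with a mean of 0.83 ± 0.51 (SD, n = 4), or 1.78-fold higher in fasted liver (adjusted p 0.0574 in limma, 95% interval 1.30 to 2.43-fold). Replicate 2 had the largest ratio, and without it the mean was 0.58 (adjusted p 0.0603), just short of the fold limit. Without replicate 3 the mean was 0.91 (adjusted p 0.140) and without replicate 4 it was 0.93 (adjusted p 0.107), so the call rested on each of these 3 arrays, while the direction was the same on all 4. The call was also lost with median centring (0.69, adjusted p 0.134), with normexp on all spots (0.70, adjusted p 0.559) and at an adjusted p limit of 0.05.

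Markers of other cell types were set beside this call, since leukocytes carry Il6ra as well as hepatocytes. None of the 6 kept of 8 Kupffer cell and macrophage markers was called, and their summed signal was 10780 to 14230 in the fasted and 7584 to 12800 in the refed livers. None of the 4 kept of 10 lymphocyte and neutrophil markers was called, with sums of 716.2 to 963.8 and 672.1 to 932.3. None of the 6 endothelial markers was called, but their sums, 5710 to 6342 in the fasted and 4729 to 5292 in the refed livers, did not overlap. Among single kept probes, 13.6% did not overlap. Stab2 and Kdr, the brightest of these markers, weighed most in the sums. Stab2 had a mean of 0.35 (adjusted p 0.0479), under the fold limit, and the others had means from -0.03 for Tek to 0.16 for Kdr. The part of these cells in the Il6ra result was not tested.

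The genes whose 4 ratios lay nearest to those of Il6ra were Slc7a2, an arginine transporter, with a root mean square difference of 0.151 over the 4 arrays and a mean log2 ratio of 0.89, Spata2l with 0.170 and 0.74, and Gm2371 with 0.177 and 0.72. They were picked for this likeness, which therefore is no test.

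Il6st encodes gp130, the signal-transducing subunit shared by the interleukin-6 family. Its log2 signals lay between 9.37 and 9.52 in the fasted and between 9.29 and 9.54 in the refed livers, and the groups overlapped. The log2 ratios were -0.14, -0.17, 0.15 and 0.19, and the mean of 0.0057 ± 0.19 (SD, n = 4, adjusted p 0.982) had a 95% interval from -0.22 to 0.23. A difference of 1.5-fold in either direction thus lay outside the interval.

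Ghr, the growth hormone receptor, had 2 bright probes, which are annotated to different RefSeq transcripts. The brighter one had log2 signals of 12.61, 12.51, 12.54 and 12.46 in the fasted and 12.23, 12.46, 12.72 and 12.51 in the refed livers, which overlapped. Its mean log2 ratio was 0.05 ± 0.24 (SD, n = 4, adjusted p 0.838, 95% interval -0.20 to 0.31). The second probe had a mean of -0.09 ± 0.09 (SD, n = 4, adjusted p 0.547, 95% interval -0.27 to 0.09).

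Lepr, the leptin receptor, had 4 probes along chromosome 4, of which 3 were kept. The brightest had log2 ratios of 0.28, 0.02, -0.04 and -0.09, a mean of 0.04 ± 0.16 (SD, n = 4, adjusted p 0.835), and its livers overlapped. The probes farther along the gene had means of 0.10 (adjusted p 0.511) and 0.27 (adjusted p 0.111). The latter, A_55_P2192662, had ratios of 0.44, 0.27, 0.14 and 0.23, all above 0. Both were dim and depended on the background treatment. A_55_P2192662 reached 0.60 (adjusted p 0.0423) with plain subtraction and 0.88 (adjusted p 0.0209) with the software's processed signals, where it passed both limits, and 0.18 (adjusted p 0.559) with normexp on all spots. The other, A_55_P2177911, reached 0.42 (adjusted p 0.0808) with the processed signals. The last probe, A_66_P130517, is annotated to a RefSeq transcript that no kept probe is annotated to. A_66_P130517 was not well above background in any liver, with log2 signals of 5.94 to 6.08 in the fasted and 5.90 to 6.17 in the refed livers, and was not tested. Its log2 ratios, between -0.13 and 0.03, had a mean of -0.04.

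Other genes of the pathway were taken by their brightest kept probe, where 292 of 16054 genes (1.82%) were called higher and 342 (2.13%) lower and the median log2 ratio was 0.0032. None of the 8 other SOCS and SOCS box ligase genes was called (median -0.10), the lowest p belonging to Socs5 at -0.36 (adjusted p 0.183), and the dye term passed for 4 of them, Socs5, Socs7, Elob and Eloc. None of the 9 tested of 12 other regulators of JAK and STAT signalling, which include phosphatases, PIAS proteins and SH2B adaptors, was called (median -0.02), nor was any of the 4 JAK kinases, whose mean log2 ratios ran from -0.10 for Tyk2 to 0.14 for Jak2. Of 5 other STATs 4 were tested and none was called. Stat2, a partner in interferon signalling, had -0.23, -0.62, -0.86 and -0.38 (mean -0.52, adjusted p 0.0554) and missed the fold limit.

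Of 21 other cytokine receptors 20 were tested, none was called higher and 1 was called lower. This was Prlr, the prolactin receptor and a relative of Ghr, with log2 ratios of -0.96, -1.23, -1.38 and -1.23 (mean -1.20 ± 0.18, SD, n = 4; adjusted p 0.00379). Its second probe had a mean of -0.73. Leprot, the leptin receptor overlapping transcript, had a mean of 0.51 (adjusted p 0.0206) and missed the fold limit, as did Il22ra1 at 0.32 (adjusted p 0.0578). Of 19 cytokine and hormone ligands 4 passed the filter, and none of these was called. The genes for interleukin-6, leptin and growth hormone were among the ligands whose probes did not pass it, which gives no level for them.

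STAT5 and growth hormone target genes were measured as 15 of 17 listed genes, of which 3 were called lower and none higher (median 0.02). The 3 were Igfals, the acid-labile subunit of the circulating IGF complex, at -0.84 (adjusted p 0.0600), Onecut1, a liver transcription factor, at -0.92 (adjusted p 0.0161), and Nudt7, a peroxisomal coenzyme A hydrolase, at -1.19 (adjusted p 0.0291). The dye term passed for 5 of the 15, namely Bcl6, Slco1a1, Elovl3, Hsd3b5 and Nudt7.

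Bcl6, a repressor that growth hormone is known to lower in male liver, had log2 ratios of 1.31, 1.72, -1.14 and -1.82, a mean of 0.02, and a dye term with an adjusted p of 0.00585. Its ratios were above 0 on the arrays where those of Socs2 and Cish were lowest and below 0 on the others. Slco1a1, an organic anion transporter expressed mainly in males, had -1.0, -0.91, 1.51 and 0.98 (dye term adjusted p 0.00585). Hsd3b5, a male-specific steroid dehydrogenase, had -1.95, -2.99, -0.52 and -0.17 (mean -1.41, adjusted p 0.136). Elovl3, a fatty acid elongase, had 0.15, -0.32, 2.63 and 2.04 (mean 1.13, adjusted p 0.261). With the dye term in the model, which leaves only the spread within pairs of arrays, Hsd3b5 was called lower (adjusted p 0.00532) and Elovl3 higher (adjusted p 0.00417). Over the 8 livers, Bcl6 was related to Socs2 at r = -0.72 (exact permutation p = 0.0495, adjusted 0.174) and rho = -0.67 (exact permutation p = 0.0831, adjusted 0.289), and at r = -0.66 without the 2 livers farthest from the Socs2 median, which did not pass adjustment. Other listed genes had relations to Socs2 of like size that did not pass either. Igfals had r = 0.73, Onecut1 0.71 and Mup20 -0.68, and without those livers 0.17, 0.61 and -0.56. Bcl6, Slco1a1, Hsd3b5, Elovl3 and Mup20 were named after their values had been seen.

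**Figure D4:**
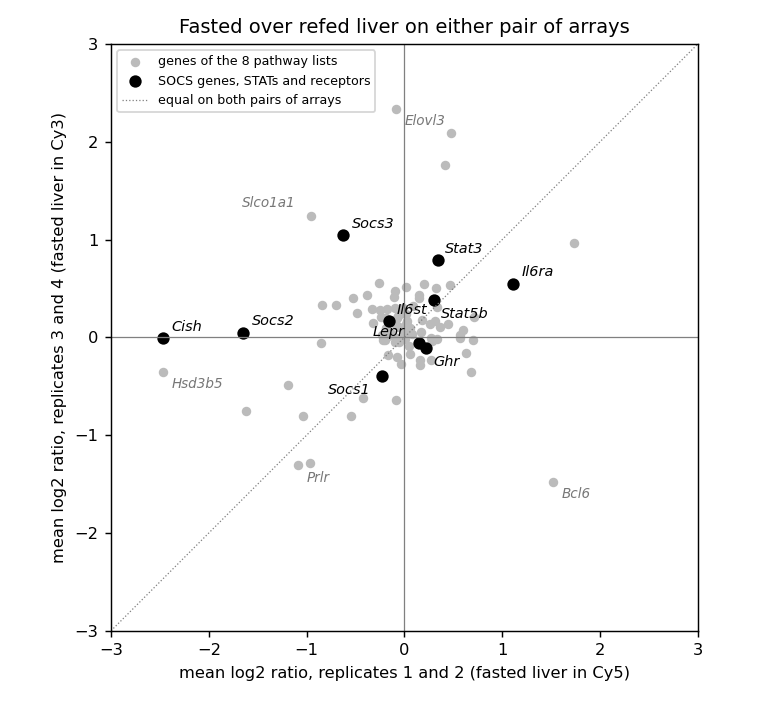
Mean log2 ratio of fasted over refed liver on replicates 1 and 2 (horizontal) against that on replicates 3 and 4 (vertical) for the SOCS genes, STATs and receptors (black, brightest kept probe) and for tested genes of the 8 pathway lists (grey), with a dotted line at equal means. Cish and Socs2 lie far left at a height of about 0, Socs3 and Slco1a1 in the upper left and Bcl6 in the lower right, while Il6ra, Stat3, Socs1 and Prlr have the same sign on both axes.

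STAT3 and acute phase target genes were measured as 25 of 28 listed genes, of which 1 was called higher and 2 lower (median 0.16). Cebpd, a transcription factor of the acute phase, was higher at 1.35 (adjusted p 0.0206). Bcl3, an atypical IkB protein, was lower at -1.12 (adjusted p 0.00819) and Steap4, a metalloreductase, was lower at -0.68 (adjusted p 0.0225). Each of the 3 had 1 sign on all 4 arrays. The secreted acute phase proteins were not called: Saa1 had a mean of 1.09 (adjusted p 0.126) and Saa2 of 1.28 (adjusted p 0.141), with their largest ratios on replicate 3. With the dye term in the model, which leaves only the spread within pairs of arrays, both were called higher (adjusted p 0.0203 for Saa1 and 0.0284 for Saa2). The dye term itself passed for 6 of the 25 genes.

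**Figure D5:**
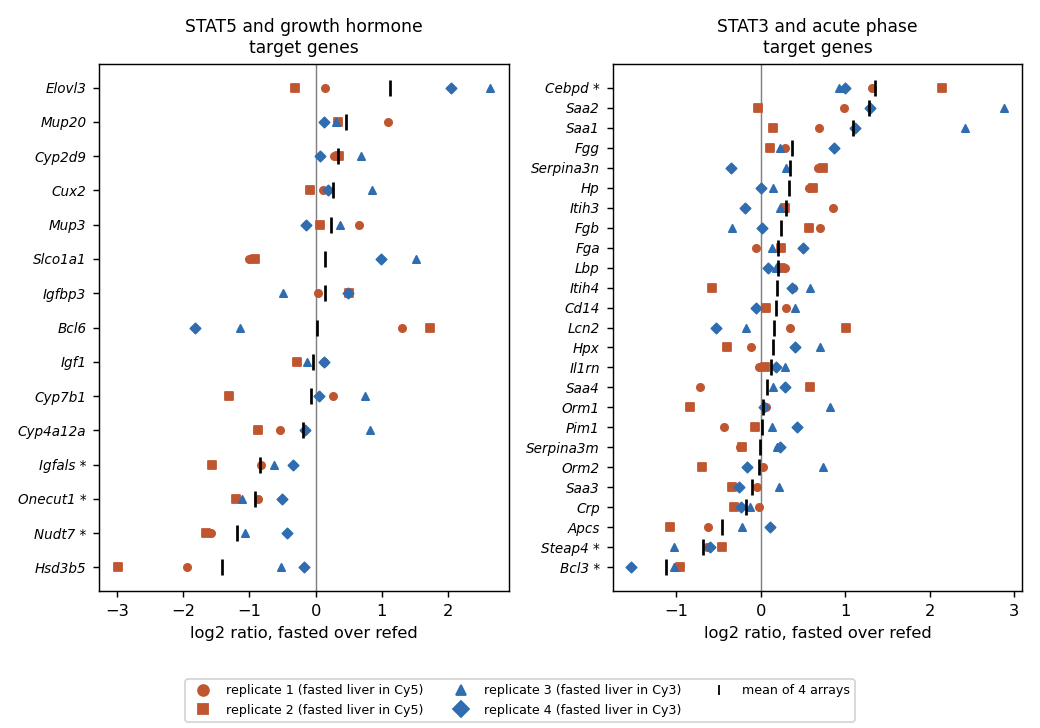
Log2 ratios of fasted over refed liver on each array for tested STAT5 and growth hormone target genes (left) and STAT3 and acute phase target genes (right), ordered by the mean (black bar), where colours give the dye of the fasted liver and asterisks mark called genes. Bcl6, Slco1a1, Elovl3, Hsd3b5 and Nudt7 (left) and Fgb, Hpx, Hp, Lcn2, Apcs and Serpina3m (right) separate by pair of arrays. The called genes Igfals, Onecut1, Nudt7, Cebpd, Bcl3 and Steap4 keep 1 sign throughout, as does Hsd3b5 among others.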

How the data were processed

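Whole-liver RNA of 4 fasted and 4 refed mice was hybridised by the authors to 4 two-colour Agilent arrays, 1 fasted and 1 refed liver each, with 200 ng of RNA labelled per liver, and all arrays lay on 1 slide and were read in 1 scan. The deposited scanner files (Feature Extraction 10.10.1.1 per the file headers) hold raw intensity per spot with local background and quality flags, and a deposited table holds log2 ratios normalized by the authors, with column medians of -0.117, -0.081, 0.057 and 0.014 and a background step not given in the sources used here. That table served as an alternative, joined to spots by row number, where its columns correlated at 0.319 to 0.746 with the scanner software's ratios of fasted over refed liver. Median signals were read in R 4.3.3 with limma 3.58.1. Spots with a local background over 3 times the array median (0 to 29 per array) or flagged as outliers were left out. Normexp with an offset of 50 corrected the background, loess normalized the ratios within arrays, which were then turned to fasted over refed, and spots of a probe were averaged. Signals of single livers were scaled by Aquantile. Differences were tested with lmFit and eBayes on the 4 ratios, two-sided, without a dye term. The named genes are the members, called genes of the lists or else up to 3 with the lowest p, and the 3 genes nearest to a called member; further genes of a list were named after their values had been seen. Alternatives covered the background, source of values, normalization, filter, dye term, test, threshold, choice of probe and replicates. The members, lists, background limit and tests were chosen with earlier results of these data known. The fit was checked on simulated data. The number of arrays limits the precision.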

Additional observations from a re-analysis of the deposited data

Results flagged for a closer look

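Il6ra was the only 1 of 17 kept probes of these genes at which 1 array stood apart from the other 3. Its log2 ratio on replicate 2 was 1.59, against 0.52 to 0.63 on the other arrays, and the gap to the nearest array was 0.892 of the whole range, above Dixon's critical value for 4 samples. Chance alone gives such a gap in about 1 in 20 groups.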

How the results depend on the processing

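Counts of called probes were 335 higher and 410 lower, with 1 of the 10 genes called higher and 0 lower. They became 5 and 14 with normexp on all spots (0 genes called), 550 and 713 with plain subtraction (1 gene higher, 1 lower), 686 and 904 with the software's processed signals (2 genes higher, 1 lower) and 935 and 1215 with no fold limit (2 higher, 1 lower). Median centring gave 230 higher and 635 lower and 0 genes called, an adjusted p limit of 0.05 called 0 genes, the dye term called 1 gene higher and 2 lower and a rebuilt SAM 1 higher and 1 lower (Cish). Without each replicate in turn, 208 to 412 probes were higher, 256 to 525 lower, 0 to 2 genes higher, and the dye term passed for 213 to 2336 probes. The lowest counts of probes came without replicate 3 and the lowest count for dye without replicate 4. Replicates 1 and 2 alone, added after seeing the data, gave 592 higher and 529 lower with 1 gene higher and 2 lower, and replicates 3 and 4 alone gave 676 and 758 with 2 genes higher.

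Il6ra kept its direction in all 25 alternatives but lost its call in 7: normexp on all spots (0.70), median centring (0.69), the 0.05 limit, without replicates 2 (0.58), 3 (0.91) or 4 (0.93), and on replicates 3 and 4 alone (0.55). Means of other genes turned sign where they were near 0 or differed between arrays. Socs3 became -0.23 with normexp on all spots, -0.18 to 0.62 without each replicate in turn and -0.63 on replicates 1 and 2 alone. Socs2 became 0.048 on replicates 3 and 4 alone. Il6st became -0.066 with normexp on all spots, -0.11 with median centring, -0.055 to 0.064 without each replicate in turn and -0.16 on replicates 1 and 2 alone. Lepr became -0.060 with median centring, -0.035 to 0.088 without each replicate in turn and -0.062 on replicates 3 and 4 alone. Ghr became -0.097 with median centring, -0.020 as the median of its probes, -0.055 to 0.13 without each replicate in turn and -0.11 on replicates 3 and 4 alone. No cause of these changes was tested. Socs1, Stat3 and Stat5b kept their direction in all 25, and Cish was below 0 in all 25 but at -0.0036 on replicates 3 and 4 alone and -0.57 without replicate 1. No paired analysis was possible beyond the ratio within an array, because each array already pairs 1 fasted with 1 refed liver.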

Other observations

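Among markers of other tissues, pancreatic acinar genes had a summed signal of 18840 in the refed liver of replicate 3, against 1131 to 1300 in the other refed livers and 1224 to 1708 in the fasted livers. Red blood cell genes had sums of 19200 to 89540 in the fasted and 12570 to 27280 in the refed livers. Neither list had a called gene. Of the stellate cell and fibroblast, cholangiocyte and adipocyte markers, 5 of 6, 3 of 5 and 2 of 6 were tested, none was called and the sums of both conditions overlapped.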
